A study of Triticum polonicum with 8 samples.

Results

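The comparison concerned cadmium added to zinc-treated roots of dwarf Polish wheat (Triticum polonicum) under a raised supply of calcium and potassium nitrate. It was taken by the column names of the count table, library N2_Cd_Zn against library N2_Zn, which are 2 of the 8 libraries of the series. Of 124856 genes in the table, 31873 (25.5%) reached at least 5 CPM (counts relative to the library's total, corrected by TMM, the trimmed mean of M-values) in N2_Cd_Zn or N2_Zn and were compared. N2_Cd_Zn roots had received 80 µM CdCl2 and 500 µM ZnSO4, and N2_Zn roots 500 µM Zn, whose salt is not named in its own label. Both were on a medium with 8 mM calcium nitrate and 10 mM potassium nitrate, which amounts to 26 mM nitrate, so that calcium, potassium and nitrate were raised together in both. The 2 other libraries at this supply were N2_Cd (80 µM CdCl2) and N2 (no added metal). The remaining 4, N0_Cd_Zn, N0_Zn, N0_Cd and N0, had the same metal treatments on 4 mM calcium nitrate and 5 mM potassium nitrate, which amounts to 13 mM nitrate. The basal dose of zinc in the medium was 5 µM, per the series' design text. Seedlings were 4 weeks old, and roots were taken after 1 week of treatment.

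Cadmium has no known nutritional role in plants and is toxic to roots, whereas zinc is an essential micronutrient that becomes toxic in excess. The ions resemble each other chemically and can enter root cells through shared divalent metal transporters. Inside the cell, plants bind both metals with thiol-rich peptides and proteins, such as phytochelatins and metallothioneins, and move them into vacuoles. Polish wheat is a tetraploid with an A and a B subgenome, so that most genes exist as a pair of closely related copies on corresponding chromosomes. The identifiers of the table name genes of bread wheat, which carries a D subgenome as well. They give a chromosome arm and a sequence scaffold, and the files do not pair them with gene names or functions. Genes are therefore described by position, level and behaviour across treatments, and neither the metal-handling genes nor markers of root tissue were looked up.

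Each treatment was represented by 1 library. Per the labels there were 3 biological replicates of every treatment, but none of the sources used here says how these became the 1 column. No difference between N2_Cd_Zn and N2_Zn has a replicate check, and no test was made. Sizes of ratios are given instead, and 95% intervals on them cover counting error only. Totals were 20000875 counts in N2_Cd_Zn and 21836143 in N2_Zn, against 21518150 to 25241789 in the other 6 libraries. N0_Zn and N0_Cd_Zn stood apart from the rest in genes with low levels. Among the 31873 genes, 1767 were 2-fold or more below all 7 other libraries in N0_Zn and 1498 in N0_Cd_Zn, whereas the other 6 libraries had between 21 (N2_Cd_Zn) and 234 (N2_Cd) such genes. In genes 2-fold or more above all others they did not stand apart, with 345 in N0_Zn and 222 in N0_Cd_Zn beside 335 in N2_Zn and 270 in N2_Cd. The genes had to reach 5 CPM in N2_Cd_Zn or N2_Zn, which leaves out genes low in both of these. Whether the columns N0_Zn, N0_Cd_Zn, N2_Zn and N2_Cd_Zn carry the right labels was not tested. An exchange of the labels within a pair would turn the sign of its ratios.

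Addition of cadmium to zinc-treated roots left most transcripts near their level. Of the genes compared, 21128 (66.3%) were within 1.5-fold of each other in N2_Cd_Zn and N2_Zn, and the quartiles of the log2 ratio were -0.43 and 0.37 around a median of -0.02. A 2-fold or larger difference was found for 14.5% of genes, of which 1943 (6.1% of those compared) were higher and 2690 (8.44%) lower in N2_Cd_Zn. The same rule set 20.2% of genes apart for N2_Cd against N2, 20.8% for N0_Cd against N0 and 44.2% for N0_Cd_Zn against N0_Zn, each over its own genes with at least 5 CPM. Over the 31873 genes compared in N2_Cd_Zn and N2_Zn these shares were 15.7%, 17.6% and 40.4%. The cadmium pair under zinc and raised nitrate had the smallest share of the 4 on either basis, and on the shared genes it lay close to N2_Cd against N2.

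At the minimum of 5 CPM, the surplus of lower genes was largest at modest differences. At 4-fold or more, 2.86% of genes were apart, 426 (1.34%) of them higher and 485 (1.52%) lower. At 8-fold the share was 0.929%, with 151 (0.474%) higher and 145 (0.455%) lower, and at 16-fold it was 0.355%, with 57 (0.179%) higher and 56 (0.176%) lower. Among genes that reached 20 CPM, however, 61 lay 8-fold or more below N2_Zn in N2_Cd_Zn and 29 above it. The 2-fold surplus also depended on the scaling of the libraries. On the deposited FPKM values (counts scaled by gene length and library total) with a pseudocount of 1 and no further scaling, 1622 genes were higher and 1607 lower on the log2(FPKM + 1) scale. With TMM factors computed without a filter on low counts, an alternative chosen after seeing the data, 2292 were higher and 2417 lower.

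**Figure D1:**
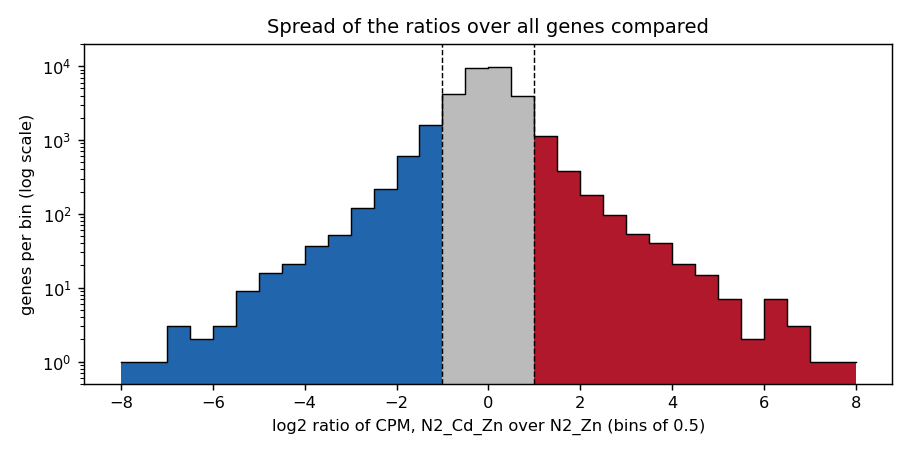
Number of genes (log scale) in bins of 0.5 of the log2 ratio of CPM in N2_Cd_Zn over N2_Zn, for the 31873 genes compared. Red bins hold the genes 2-fold or more higher in N2_Cd_Zn, blue bins those lower, and grey bins the rest, with dashed lines at 2-fold; the blue side is taller next to the lines and the tails are alike.

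Counts behind the called genes were at least 107. The genes called higher had a median of 359 counts over the pair, and those called lower a median of 446. The exact 95% interval of the ratio lay wholly beyond 2-fold for 1131 (58.2%) of the 1943 higher genes and for 1647 (61.2%) of the 2690 lower genes. For the rest, counting error alone reached across the 2-fold line. The spread between separate roots of 1 treatment is not part of these intervals. In terms of reads, the higher genes took up 5.51% of the counts in N2_Cd_Zn and 1.91% in N2_Zn, and the lower genes 3.28% in N2_Cd_Zn and 8.89% in N2_Zn.

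Among genes that reached 20 CPM in N2_Cd_Zn or N2_Zn, the one with the largest log2 ratio, TRIAE_CS42_5AL_TGACv1_374914_AA1211820, lies on the long arm of chromosome 5A. It had 1232 counts (58.8 CPM) in N2_Cd_Zn and 5 counts (0.232 CPM) in N2_Zn, a 253-fold difference with an interval of 108 to 781. Elsewhere at the raised supply it was at 1.15 CPM in N2_Cd and 9.74 CPM in N2, so that N2_Cd_Zn was the only library above 10 CPM there. At the basal supply it was at 79.0 CPM in N0_Cd_Zn, 302 in N0_Zn, 191 in N0_Cd and 101 in N0. All 4 of those libraries lay above N2_Cd_Zn, and the order of the zinc pair was turned round.

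The neighbours of this gene went with it. Its scaffold carries 4 genes in the table, of which 1 had no read in any library. The other 2 neighbours had 223 counts (10.6 CPM) and 130 counts (6.2 CPM) in N2_Cd_Zn and none in N2_Zn. Against a floor of 3 counts in N2_Zn they were at least 76.4-fold and at least 44.5-fold higher in N2_Cd_Zn. In N2_Cd they were at 0.184 and 0.276 CPM, and in N2 at 2.4 and 2.82 CPM. In N0_Cd_Zn they were at 14.3 and 5.06 CPM, and in N0_Zn at 174 and 75.1 CPM. The 3 neighbouring genes therefore shared the pattern of being nearly silent in N2_Zn, low in N2_Cd, present in N2_Cd_Zn, and most abundant in N0_Zn. Because they lie together and may be related in sequence, their counts are not independent observations.

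On the short arm of chromosome 7A, TRIAE_CS42_7AS_TGACv1_569206_AA1810290 had 463 counts (22.1 CPM) in N2_Cd_Zn and 2 counts (0.0928 CPM) in N2_Zn, a 238-fold difference with an interval of 65.5 to 1970. It was at 1.52 CPM in N2_Cd and 4.37 in N2. At the basal supply it was at 8.21 CPM in N0_Cd_Zn and had no read in N0_Zn, and it was at 0.408 CPM in N0_Cd and 0.908 in N0. The combined treatment was thus the highest metal condition for this gene at both supplies, and zinc alone the lowest. Its compared scaffold neighbours did not share this, with log2 ratios of 0.20 and -0.89 between N2_Cd_Zn and N2_Zn.

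Among lower genes of that level, the largest log2 ratio, which adds a prior count of 2 to both libraries, belonged to TRIAE_CS42_7AL_TGACv1_557853_AA1787110 on the long arm of 7A. It had 18 counts (0.858 CPM) in N2_Cd_Zn and 2521 counts (117 CPM) in N2_Zn, which is 136-fold lower with an interval of 86.0 to 230. No other library came near N2_Zn, as N2_Cd had 5.34 CPM, N2 10.3, N0_Cd_Zn 2.84, N0_Zn 2.47, N0_Cd 0.367 and N0 23.8. N0, without added metal, held the next highest level.

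A gene on 5AL, TRIAE_CS42_5AL_TGACv1_374997_AA1213670, behaved otherwise. It had 3 counts (0.143 CPM) in N2_Cd_Zn and 550 counts (25.5 CPM) in N2_Zn, a ratio of 178-fold lower with an interval of 60.7 to 867. N2 without metal was at 27.0 CPM, close to N2_Zn, and N2_Cd at 1.52 CPM. At the basal supply the zinc pair was the other way round, with 52.8 CPM in N0_Cd_Zn and 0.274 in N0_Zn, beside 6.36 in N0_Cd and 17.6 in N0. Cadmium went with a lower level of this gene in N2_Cd_Zn, N2_Cd and N0_Cd, and with a higher level in N0_Cd_Zn, each set against its partner without cadmium.

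**Figure D2:**
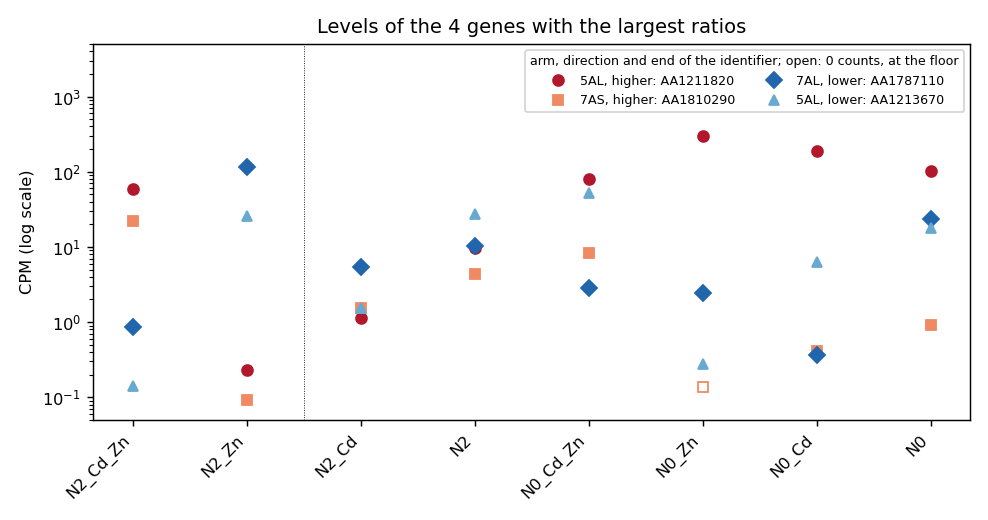
CPM (log scale) in all 8 libraries of the 4 genes with the largest log2 ratios among genes that reached 20 CPM, left of the dotted line the compared pair; an open symbol marks 0 counts, drawn at the floor of 3 counts. The 7AL gene reaches 117 CPM in N2_Zn and stays at 23.8 CPM or less elsewhere, whereas the first 5AL gene is lowest in N2_Zn and highest in N0_Zn.

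The 20 largest ratios in each direction were then taken among genes that reached 20 CPM in N2_Cd_Zn or N2_Zn. The 20 most strongly lower genes had log2 ratios from -6.95 to -3.99 and a median of 1.22 CPM in N2_Cd_Zn and 33.7 in N2_Zn. For 19 of them N2_Zn was the highest of all 8 libraries, which it was for 16.2% of all genes compared. The median of these 20 genes was 3.64 CPM in N2_Cd, 4.78 in N2, 0.599 in N0_Cd_Zn, 0.526 in N0_Zn, 1.43 in N0_Cd and 8.15 in N0. The 20 most strongly higher genes had log2 ratios from 3.60 to 7.53 and a median of 37.3 CPM in N2_Cd_Zn and 1.88 in N2_Zn. Of these, 8 were highest in N2_Cd_Zn (9.75% of all genes compared), 4 in N0_Cd_Zn (14.7%) and 4 in N0 (8.72%). Their medians were 17.2 CPM in N2, 20.01 in N0 and 10.8 in N0_Cd_Zn, but 6.29 in N2_Cd, 3.96 in N0_Zn and 3.91 in N0_Cd, so that of the 6 libraries outside the pair the 2 with cadmium alone and N0_Zn held the low values. The low level of these genes in N2_Zn follows from their choice. High ranks of N2_Zn among the 20 lower genes, and of N2_Cd_Zn among the 20 higher, follow from the choice in part.

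Genes without a read in 1 library of the pair were few. With at least 5 CPM in N2_Cd_Zn, 5 genes had no read in N2_Zn, and their bounds ran from at least 44.5-fold to at least 94.9-fold higher. They comprised the 2 scaffold neighbours on 5AL, 2 loci with a serial number only and 1 gene without an arm. With at least 5 CPM in N2_Zn, 4 genes had no read in N2_Cd_Zn, 1 each on 1DL, on 6AS, without an arm and with a serial number only, and they were at least 35.7-fold to at least 137-fold lower.

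Levels over all 8 libraries showed where the called genes stood in other treatments. The 1943 higher genes had a median of 12.8 CPM in N2_Cd_Zn and 4.22 in N2_Zn, with 8.11 in N2_Cd and 6.21 in N2 between them. In basal roots their median was 4.17 CPM in N0_Cd_Zn, 9.60 in N0_Zn, 10.9 in N0_Cd and 7.22 in N0. N0_Cd_Zn, the basal library with the same metals as N2_Cd_Zn, therefore held the lowest of these medians. Among the 6 libraries outside the pair, N0_Cd_Zn was the lowest for 820 of the higher genes (42.2%), against 25.4% of all genes compared. Of all 8 libraries, N2_Cd_Zn was the highest for 601 (30.9%), against 9.75%.

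The 2690 lower genes had a median of 5.29 CPM in N2_Cd_Zn and 15.4 in N2_Zn, with 12.1 in N2_Cd and 9.95 in N2. Their basal medians were 9.72 CPM in N0_Cd_Zn, 2.42 in N0_Zn, 7.13 in N0_Cd and 5.92 in N0. Zinc without cadmium was thus the treatment of highest median at the raised supply and of lowest median at the basal supply. Among the 6 libraries outside the pair, N0_Zn was the lowest for 1825 of the lower genes (67.8%), against 25.0% of all genes compared. Of all 8 libraries, N2_Zn was the highest for 1222 (45.4%), against 16.2%. Since the genes were chosen by N2_Cd_Zn and N2_Zn, high shares at those libraries follow in part from the choice.

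Genes with 8-fold or larger differences were also taken alone. The 151 higher ones had a median of 10.9 CPM in N2_Cd_Zn, 0.696 in N2_Zn, 1.98 in N2_Cd and 5.04 in N2, so that roots with cadmium alone stood below roots with no added metal. The level in N2_Zn was fixed by the choice of the genes. The 145 lower ones had a median of 0.954 CPM in N2_Cd_Zn, 15.5 in N2_Zn, 2.99 in N2_Cd and 2.89 in N2. N2_Zn was the highest library for 115 (79.3%) of them, against 16.2% of all genes compared. A high rank of N2_Zn follows in part from the choice of these genes.

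**Figure D3:**
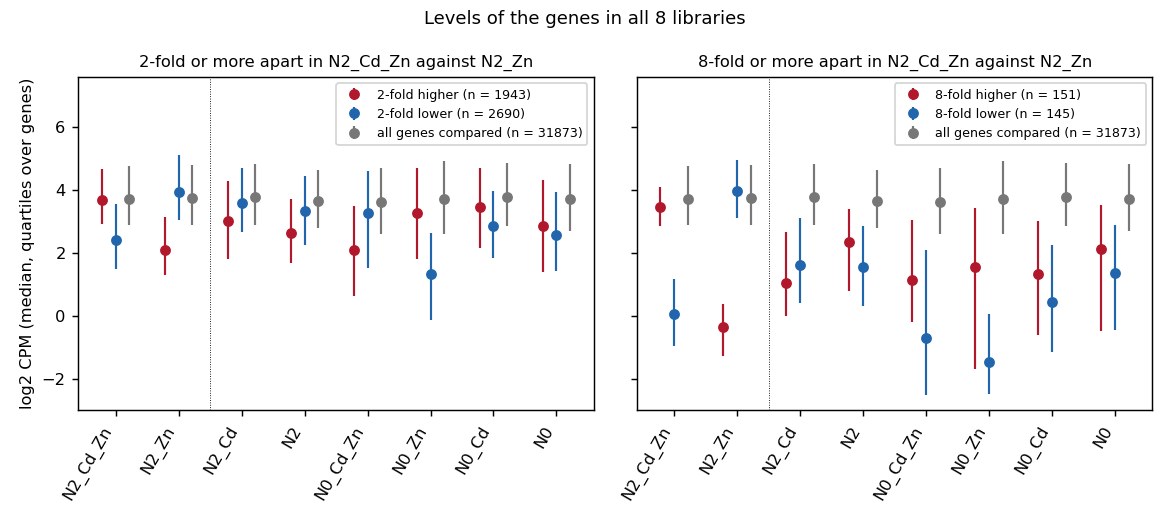
Level (log2 CPM; point, median over genes; line, quartiles over genes) in the 8 libraries of the genes 2-fold or more (left) and 8-fold or more (right) higher (red) or lower (blue) in N2_Cd_Zn against N2_Zn, with all 31873 genes compared in grey. Blue medians peak in N2_Zn and are lowest in N0_Zn in both panels; on the right, red medians are higher in N2 than in N2_Cd or N2_Zn.

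A more exacting count asked which genes set a library apart from the whole series. In N2_Cd_Zn, 147 genes (0.461%) were 2-fold or more above all 7 other libraries, and in N2_Zn 335 genes (1.05%) were. The other 6 libraries had between 35 (0.11%, N0) and 345 (1.08%, N0_Zn) such genes, so that neither count was particular to its library. Genes had to reach 5 CPM in N2_Cd_Zn or N2_Zn, which leaves out genes high only in another library. Of the 147 genes, 69 (46.9%) lay on A arms, which hold 40.9% of the genes compared, and 62 (42.2%) on B arms, which hold 42.4%. The undivided 3B held 12 (8.16%), against 6.73% of the genes compared. The 335 genes included 26 on 7BL and 18 on 7AL. These 44 genes on the long arms of group 7 made up 13.1% of the 335, whereas the arms hold 6.27% of the genes compared. Only 21 genes (0.0659%) were 2-fold or more below all other libraries in N2_Cd_Zn, and 61 (0.191%) in N2_Zn.

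Levels of these genes with cadmium elsewhere were read from the 3 other cadmium pairs, which contain neither N2_Cd_Zn nor N2_Zn. Without zinc, cadmium went with higher levels of many of the higher genes. Of the 1943, 628 (32.3%) were 2-fold or more higher in N2_Cd against N2, where 10.8% of all genes compared were, and 662 (34.1%) in N0_Cd against N0, where 11.8% were. The median log2 ratio of the list was 0.34 and 0.35 in these pairs, against 0.07 and 0.04 over all genes compared. The same list also held an excess of lower genes, with 372 (19.1%) against 4.89% in N2_Cd and 296 (15.2%) against 5.81% in N0_Cd. The 628 shared genes were 18.2% of the 3454 genes higher in N2_Cd against N2 among the 31873.

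As a group, the 2690 lower genes did not go down with cadmium alone. In N2_Cd against N2, 571 (21.2%) were 2-fold or more higher and 180 (6.69%) lower, with a median log2 ratio of 0.17. In N0_Cd against N0, 545 (20.3%) were higher and 328 (12.2%) lower, with a median of 0.23. Over all genes compared 10.8% and 11.8% were higher and 4.89% and 5.81% lower in these pairs, so that the list held an excess in both directions. Its medians were positive, against a negative ratio in N2_Cd_Zn against N2_Zn.

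In the presence of zinc at the basal supply, cadmium went the other way for most called genes. In N0_Cd_Zn against N0_Zn, 1144 of the 1943 higher genes (58.9%) were 2-fold or more lower, where 23.8% of all genes compared were, and 230 (11.8%) were higher, where 16.6% were. Their median log2 ratio was -1.39, against -0.21 over all genes compared. Of the 2690 lower genes, 1651 (61.4%) were 2-fold or more higher in N0_Cd_Zn against N0_Zn and 312 (11.6%) were lower, with a median log2 ratio of 1.69. These 1651 genes were 31.1% of the 5302 genes higher in that pair among the 31873. N0_Zn and N0_Cd_Zn are the libraries that stood apart in genes with low levels. Neither their labels nor those of N2_Zn and N2_Cd_Zn were tested. An exchange of labels within either of these pairs would give the 2 pairs the same direction. The part of this in the result was not tested, and the 2 pairs without zinc do not contain N0_Zn or N0_Cd_Zn.

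The 8-fold higher genes differed from the wider list. In N2_Cd against N2, 88 of 151 (58.3%) were 2-fold or more lower and 32 (21.2%) higher, with a median log2 ratio of -1.57. Over all genes compared, 4.89% were lower and 10.8% higher in that pair, so that the list held an excess in both directions. In N0_Cd against N0, 58 (38.4%) were lower and 20 (13.2%) higher, with a median of -0.77. Over all genes compared these shares were 5.81% and 11.8%, so that the higher share was near that of all genes. In N0_Cd_Zn against N0_Zn the 151 genes were divided, with 59 (39.1%) higher and 69 (45.7%) lower. Both shares lay above those of all genes compared, 16.6% and 23.8%. The 145 genes 8-fold or more lower had medians of 0.01 in N2_Cd against N2, -0.83 in N0_Cd against N0 and 0.65 in N0_Cd_Zn against N0_Zn. In N0_Cd against N0, 66 of them (45.5%) were 2-fold or more lower and 25 (17.2%) higher. A fall in that pair was therefore not particular to the 8-fold higher genes. In N2_Cd against N2, 36 (24.8%) were lower and 34 (23.4%) higher, and in N0_Cd_Zn against N0_Zn 30 (20.7%) and 64 (44.1%).

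**Figure D4:**
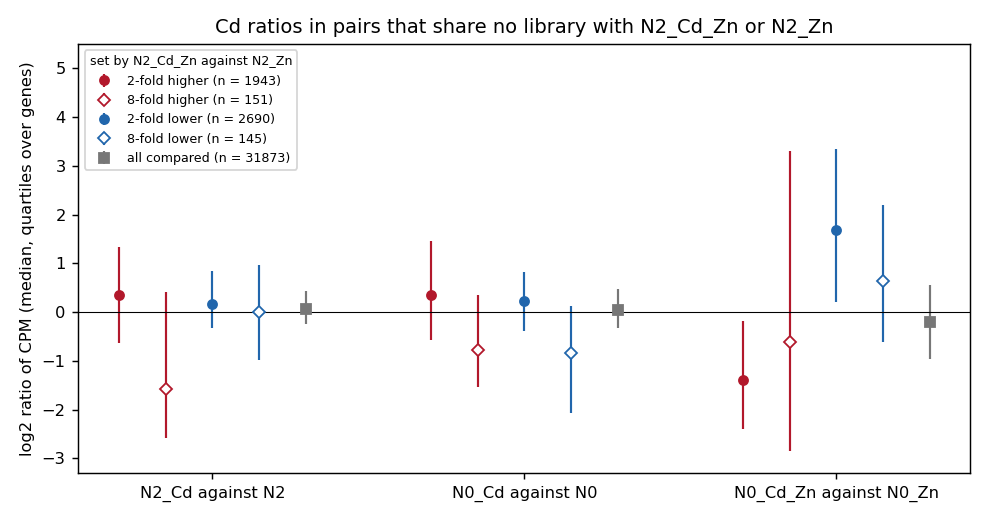
Log2 ratio of CPM (point, median over genes; line, quartiles over genes) in the 3 other cadmium pairs, for genes 2-fold (filled) or 8-fold (open) or more higher (red) or lower (blue) in N2_Cd_Zn against N2_Zn and for all genes compared (grey). The filled symbols are nearest each other in the pairs without zinc and lie on opposite sides of 0 in N0_Cd_Zn against N0_Zn, at -1.39 and 1.69.

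By subgenome, A and B genes were nearly alike. Among 13031 A genes, 5.92% lay 2-fold or more above N2_Zn in N2_Cd_Zn and 8.83% below it, and among 13515 B genes 6.20% lay above and 8.38% below, beside 6.1% and 8.44% of all genes compared. D genes, which bread wheat has and tetraploid wheat lacks, made up 854 of the genes compared. Of these, 57 (6.67%) were higher and 136 (15.9%) lower, and their median log2 ratio was -0.21. Their levels were lower than those of A genes, with a median of 9.81 CPM in the higher library of the pair against 17.1 CPM. The source of reads on D genes was not tested.

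Loci with a serial number only shifted as a group in the other direction. The 3334 such loci had a median log2 ratio of 0.22, against -0.05 for A and -0.04 for B genes, while 203 (6.09%) were 2-fold or more higher and 176 (5.28%) lower. They took up 6.76% of the counts in N2_Cd_Zn and 5.996% in N2_Zn. The median stayed between 0.22 and 0.30 under the 5 other scalings tried, whereas the medians of A and B genes turned positive under 3 of them, TMM without a low-count filter and both FPKM scales. Among these loci the median was -0.07 for the 88 under 500 bp, 0.12 for lengths of 500 to under 1000 bp and between 0.23 and 0.26 in the 3 length classes from 1000 bp up. It was -0.22 for the 30 loci of at least 200 CPM and between 0.19 and 0.25 in the 4 classes of lower level.

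The most abundant transcripts had a lower median ratio, without being more often 2-fold lower. Among 668 genes that reached 200 CPM in N2_Cd_Zn or N2_Zn the median log2 ratio was -0.32, and 29 (4.34%) were 2-fold or more higher and 55 (8.23%) lower, beside 6.1% and 8.44% of all genes. It was -0.15 for the 3983 genes from 50 to under 200 CPM, -0.03 from 20 to under 50 CPM, 0.01 from 10 to under 20 CPM and 0.04 below that. The abundant class took up 23.6% of the counts in N2_Cd_Zn and 24.8% in N2_Zn. Its median was between -0.33 and -0.24 under the 5 other scalings.

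Short genes were more often apart than long ones. In the class of 500 to under 1000 bp, 8.69% of 3337 genes lay 2-fold or more above N2_Zn and 15.4% below it. In the class of at least 3000 bp, with 5425 genes, these shares were 3.15% and 7.69%. Their median log2 ratios were close, at -0.08 for the short and -0.07 for the long class. RNA quality was not tested as a source of this difference.

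Shares on chromosome arms varied around those over all genes compared, 6.1% higher and 8.44% lower. Over the 27 arms with at least 200 genes compared, counting 3B undivided, between 3.51% (5AS) and 8.30% (1AS) of genes were 2-fold or more higher and between 5.78% (6AL) and 12.3% (1AL) lower. Lower genes outnumbered higher ones on 25 arms, equalled them on 1BS with 29 each, and were fewer on 6AL, with 51 lower and 59 higher. Of 10 pairs of corresponding A and B arms, 5 lay on the same side of the share over all genes for higher genes and 5 for lower genes. On 1AL and 1BL 12.3% and 10.1% of genes were lower, and on 6AS and 6BS 11.7% and 9.53%. On 7AS and 7BS 3.89% and 4.56% were higher. The short arms of group 1 did not match, with 10.9% lower on 1AS and 5.88% on 1BS. Near-identical A and B copies can share reads, which limits how separate such arms are.

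**Figure D5:**
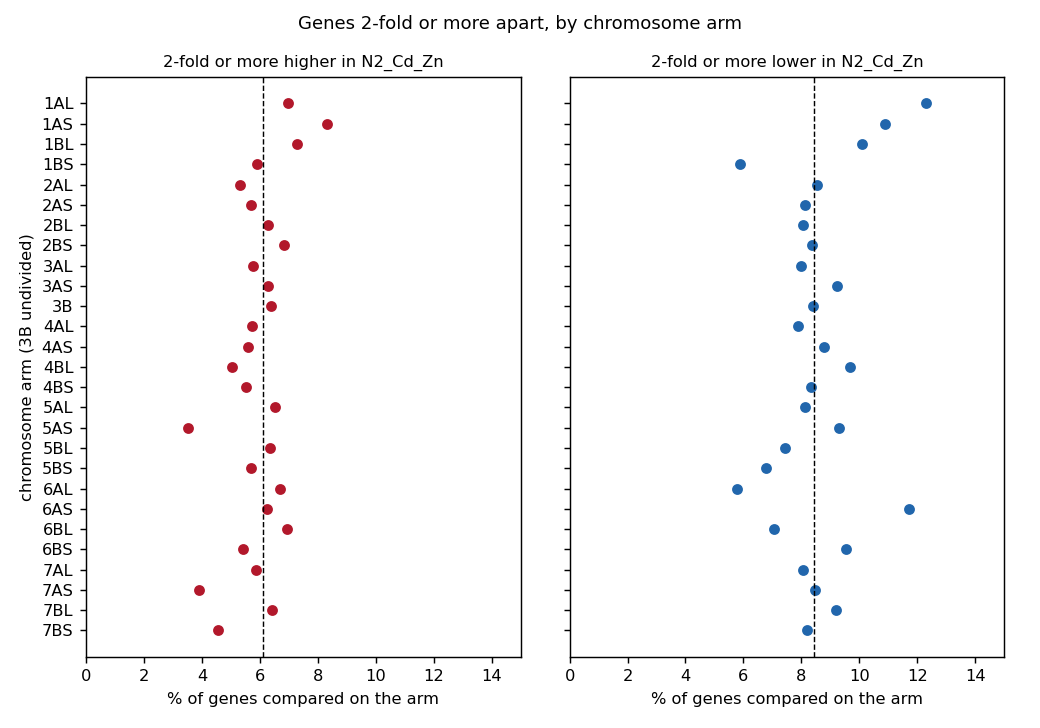
Share of the genes compared on each of 27 chromosome arms that were 2-fold or more higher (left, red) or lower (right, blue) in N2_Cd_Zn against N2_Zn; dashed lines mark the shares over all genes compared, 6.1% and 8.44%. 1AL and 6AS lie farthest right among lower genes and 5AS farthest left among higher genes.

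The strongest differences were placed somewhat differently. Of the 20 most strongly higher genes, 8 lay on 5AL and 5BL, which hold 10.2% of the genes compared. Of the 20 most strongly lower, 6 lay on 7AL, 7BL and 7DL, which hold 6.48%. These arms were singled out from the lists themselves. The lists hold genes that reached 20 CPM, whereas the arm shares are over genes at 5 CPM. Among the 6 were genes on 7DL, 7AL and 7BL with log2 ratios of -4.72, -4.67 and -4.61. Whether corresponding copies share reads was not tested. Among all 3248 genes compared on 5AL and 5BL, 1.63% were 4-fold or more higher, near the 1.34% of all genes, and 0.954% were lower, against 1.52%. On 7AL and 7BL 2.20% and 2.30% were 4-fold or more lower, below the 2.73% on 1AL and 2.42% on 6BS. The highest share of 4-fold higher genes was found on 1AS, with 14 of 458 (3.06%).

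Called genes on the same scaffold mostly went the same way. Of 311 pairs of called genes that share a scaffold, 76 were both higher, 143 both lower and 92 opposite, so that 70.4% had 1 direction. Of all called genes, 41.9% were higher. Of 5483 scaffolds with 2 or more genes compared, 9 carried 3 higher genes and 7 carried 3 lower genes. Of the 9, 3 lay on 5AL, which holds 5.05% of the genes compared. Among these 3 is the scaffold of TRIAE_CS42_5AL_TGACv1_374914_AA1211820, already described above. No lower gene lay on 8 of the 9, and no higher gene on the 7. Tandem copies on a scaffold can share reads, and their part in this was not tested.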

How the data were processed

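Per the labels' protocols, Trizol was used for root RNA and an Illumina TruSeq kit for the libraries; the design text of the series speaks of SMRT sequencing. Bowtie2 2.0.6 and TopHat2 2.0.12 are named in the submitters' processing notes. Not given in the sources used here: counter, strand setting, genome build, and any pooling of replicates. In the deposited counts, each treatment has 1 column of whole reads by gene. The deposited FPKM values were made by the authors and equal count over gene length and column total, so they served for lengths and as an alternative scale. 0 columns were left out.

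TMM factors were computed with edgeR 4.0.16 (R 4.3.3) over 8 libraries and 64580 genes kept by filterByExpr (minimum count 10). Genes that reached 5 CPM in N2_Cd_Zn or N2_Zn were compared by log2 ratios, with a prior count of 2. Named genes are the 2 largest ratios each way at 20 CPM or more. Folds and intervals come from the counts without a prior. In ranks over the 6 libraries outside the pair, ties counted for none. The ratio step was tested on simulated data with counting error only and few genes changed. That setting cannot show how the scaling behaves where many genes differ. Functional gene lists were not formed. Members and lists were chosen with earlier results of these data known.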

Additional observations from a re-analysis of the deposited data

Results flagged for a closer look

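Cadmium added to zinc gave ratios of opposite sign at the 2 levels of Ca/K nitrate for several results, and none of these differences was tested. Whether the columns N0_Zn, N0_Cd_Zn, N2_Zn and N2_Cd_Zn carry the right labels was not tested either. An exchange of labels within a pair would turn its signs round. The genes 2-fold or more higher in N2_Cd_Zn against N2_Zn had a median log2 ratio of -1.39 in N0_Cd_Zn against N0_Zn, and the genes lower had a median of 1.69. TRIAE_CS42_5AL_TGACv1_374914_AA1211820 had a log2 ratio of 7.53 in N2_Cd_Zn against N2_Zn and -1.93 in N0_Cd_Zn against N0_Zn. TRIAE_CS42_5AL_TGACv1_374997_AA1213670 had -6.80 in N2_Cd_Zn against N2_Zn and 7.19 in N0_Cd_Zn against N0_Zn. In contrast, TRIAE_CS42_7AS_TGACv1_569206_AA1810290 kept its sign, with 6.95 and 6.58 in these pairs. TRIAE_CS42_7AL_TGACv1_557853_AA1787110 had -6.95 and 0.196, so that its basal ratio was small. Each value rests on 1 library a side.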

How the results depend on the processing

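No paired analysis was possible because each treatment has 1 library, and leaving out a replicate was not possible for the same reason. Of 120 values recomputed for counts and medians, 69 kept their size, 45 moved and 6 turned in sign; of 24 ratios of named genes, 20 stayed within their counting interval and none turned. All 6 turns concerned the median log2 ratio of all genes, -0.02 in the report, which was 0.00227 with median-of-ratios size factors, 0.00304 at 1 CPM, 0.014 without a filter, 0.0614 on log2(FPKM + 1), 0.0697 on log2(FPKM + 0.1) and 0.0523 with TMM factors without a low-count filter. It was -0.0759 at 20 CPM.

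The minimum level set the counts. At 1 CPM, 4397 genes were 2-fold higher and 5122 lower, and 337 and 309 at 8-fold. At 20 CPM these were 621, 1100, 29 and 61, and without a filter 8892, 9626, 391 and 362. On log2(FPKM + 1), 1607 genes were 2-fold lower, 42 were 8-fold higher and 54 lower.

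Medians of the called genes in other pairs moved too. For N2_Cd against N2, the higher genes had 0.13 at 1 CPM, 0.49 at 20 CPM, 0 without a filter, 0.18 on log2(FPKM + 1) and 0.13 on log2(FPKM + 0.1), and the lower genes 0.11, 0.23, 0, 0.0581 and 0.0247. For N0_Cd against N0, the higher genes had 0.15 at 1 CPM, 0.48 at 20 CPM and 0 without a filter, and the lower genes 0.16, 0.17 and 0, and 0.13 on log2(FPKM + 1). For N0_Cd_Zn against N0_Zn, the higher genes had -0.99 at 1 CPM, -1.67 at 20 CPM, -0.35 without a filter, -0.84 on log2(FPKM + 1) and -1.08 on log2(FPKM + 0.1), and the lower genes 1.34, 1.83, 0.79, 1.17 and 1.94. The 8-fold higher genes had -0.85 at 1 CPM and -0.74 without a filter in N2_Cd against N2. Lower minimum levels admit genes with few counts; the other causes were not tested.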
